A study of Bos taurus with 8 samples.

Results

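Sodium-proton exchangers, anion exchangers and carbonic anhydrases were examined in rumen papillae of dairy cows fed either a low-concentrate (LC) or a high-concentrate (HC) diet. The group was defined by name as 9 genes: the sodium-proton exchangers SLC9A2 and SLC9A3, the anion exchangers SLC4A2, SLC26A3 and SLC26A6, and the carbonic anhydrases CA1, CA2, CA3 and CA4. A gene was measured where a probe of the array carried a RefSeq accession that the bovine reference assigns to it. This held for 3 of the 9 genes, namely SLC26A3 (NM_001083676), CA2 (NM_178572) and CA4 (NM_173897), each with 1 probe, out of 21475 probes and 7788 named genes in all. The other 6 genes, SLC9A2, SLC9A3, SLC4A2, SLC26A6, CA1 and CA3, had no probe linked to them and are not analysed here.

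The rumen epithelium takes up the short-chain fatty acids made by the microbes and must clear the protons that enter with them. Carbonic anhydrases interconvert carbon dioxide and bicarbonate. CA2 does so inside the cell, and CA4 is anchored to the outer face of the plasma membrane. SLC26A3 exchanges chloride for bicarbonate across the apical membrane of epithelia, while sodium-proton exchangers move protons out of the cell in return for sodium. Bicarbonate exchange is one of the routes by which fatty acid anions are thought to enter rumen epithelial cells.

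Papillae were taken from 4 lactating, ruminally cannulated Holstein cows in a crossover of 2 feeding periods, on day 21 of a period and 4 h after the morning feeding. Concentrate made up 40% of the LC ration and 70% of the HC ration. Cows 1 and 2 received LC in period 1 and HC in period 2, and cows 3 and 4 received the diets in the other order. Each of the 8 samples was hybridized to 1 single-colour array, 4 per diet, without pooling, and the 4 arrays of a period shared a slide, so period and slide cannot be told apart. Signals are quantile-normalized log2 intensities.

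The scanner software placed 76.9 to 81.2% of the probes of an array well above background. Cow numbers follow the labels of the scanner files. In the deposited table of normalized values, the column named for cow 1 held the array of cow 2 and the reverse, on both diets, so the pairing of diets within a cow is the same. Which naming is right cannot be told, and each value given below for cow 1 or cow 2 may belong to the other. Among the markers of squamous epithelium, 6 of 11 had a probe, and 5 of these (KRT14, KRT15, KRT6A, DSG3 and DSP) passed this test on all 8 arrays, while the TP63 probe was so on none. The log2 of the summed signal of the 6 genes lay between 19.13 and 19.51 on LC and between 19.21 and 19.53 on HC. Marker sums here and below are of this kind, so the brightest genes of a list weigh most in them. Among the markers of erythroid cells, smooth muscle, striated muscle, adipocytes, endothelium, leukocytes and fibroblasts, 1 gene passed the thresholds for diet described below. This was FABP4, of the adipocyte list, whose log2 signal was 12.55 and 13.88 on the LC arrays of cows 1 and 2 and 14.77 to 15.43 on the other arrays. For period, 4 markers passed, with FABP4 (0.83) and PLIN1 (0.74) higher in period 2 and LEP (-0.90) and ALAS2 (-0.94), of the erythroid list, lower.

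No difference between the diets was called for any of the 3 measured genes. A difference was called where the fold change was at least 1.5 and the unadjusted p from limma was under 0.05. These are the thresholds of the study, whose p came from a general linear model without moderation, by which 0 of the 3 genes were called as well. By this rule 0 of the 3 genes were called, beside 0.922% of all probes, and 0 of the 3 had an unadjusted p under 0.05, beside 3.65% of all probes. Their Benjamini-Hochberg adjusted p over all probes was 0.9995 in each case, and no probe of the array had an adjusted p under 0.05. The log2 fold change from LC to HC was positive for SLC26A3 and CA2 and negative for CA4. All 3 genes gave signals well above background throughout. The LC and HC arrays overlapped for each of the 3 genes, and 1.60% of all probes had diets that did not overlap. None of the 3 moved the same way on HC in all 4 cows, beside 11% of all probes.

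The SLC26A3 signal on LC was 13.73, 14.04, 13.98 and 14.03 in cows 1 to 4. On HC it was 13.83, 14.14, 14.42 and 13.90 in the same order. The HC array of cow 3 was the highest of the 8 and the LC array of cow 1 the lowest, and all other arrays lay between them within a narrow band. The mean was 13.94 ± 0.15 (SD, n = 4) on LC and 14.08 ± 0.26 (SD, n = 4) on HC. The log2 fold change of SLC26A3 from LC to HC was 0.13 ± 0.16 (standard error; limma, unadjusted p = 0.426). The exact two-sided permutation p was 0.486, where 0.0286 is the smallest that 4 arrays against 4 allow. Here and below, this test takes no account of cow or period. The difference corresponds to a 1.10-fold signal on HC, with a 95% interval of 0.844 to 1.43, which lies within 1.5-fold in both directions. In these bulk samples, fewer cells of a type and less RNA per cell cannot be told apart. The HC signal exceeded the LC signal in 3 of 4 cows, by 0.11, 0.10 and 0.44 in cows 1, 2 and 3, while cow 4 showed a difference of -0.12. When the HC sample of cow 3 was left out, the difference shrank to 0.004 in a fit without a term for cow. Within slide 1 it was 0.28 and within slide 2 it was -0.01. Here and below, the HC and LC arrays of a slide come from different cows, so diet and cow cannot be told apart within it. By the same thresholds 0 of the 3 genes were called within slide 1, beside 3.53% of all probes, or within slide 2, beside 3.78%.

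CA2 had a dim probe, with a processed intensity of 16.03 to 43.01 on the 8 arrays. Its log2 signal on LC was 4.35, 4.62, 4.34 and 5.23 in cows 1 to 4, and on HC it was 4.96, 5.03, 4.13 and 5.03. The HC arrays of cows 1, 2 and 4 lay close together, whereas that of cow 3 was the lowest of all 8. The mean was 4.63 ± 0.42 (SD, n = 4) on LC and 4.79 ± 0.44 (SD, n = 4) on HC. For CA2, the log2 fold change was 0.15 ± 0.27 (standard error; limma, unadjusted p = 0.594), and the exact two-sided permutation p was 0.629. It was 0.10 within slide 1 and 0.21 within slide 2, and 0.05 with normexp background correction. The 95% interval of the fold change was 0.705 to 1.75, so a change of 1.5-fold towards higher signal on HC was within it. With cow as a block and period in the model the standard error was 0.09 and the interval 0.944 to 1.31-fold, and limma gave an unadjusted p of 0.152. In fits without a term for cow, the difference became -0.07 when either LC of cow 3 or HC of cow 4 was left out. Such a fit also sets unlike cows against each other, so this turn of sign cannot be told apart from differences between cows.

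More of the CA2 variation went with cow and period than with diet. Cow 1 had 0.61 and cow 2 had 0.40 more CA2 signal on HC than on LC, whereas the difference was -0.20 in both cow 3 and cow 4. Given the order of the diets in each cow, CA2 was higher in period 2 in 4 of 4 cows. In quantile-normalized values, 25.3% of all probes likewise moved in one direction between the periods in all 4 cows. The mean CA2 signal was 4.53 ± 0.39 (SD, n = 4) in period 1 and 4.89 ± 0.39 (SD, n = 4) in period 2, a log2 difference of 0.35 ± 0.27 (standard error; limma, unadjusted p = 0.237). With cow as a block, the CA2 period difference had a standard error of 0.09, and an unadjusted p of 0.0131 from limma became an adjusted p of 0.210. In the same fit the unadjusted limma p was 0.0896 with scaling to the 75th percentile, 0.149 with normexp and 0.00887 in the deposited table. Its fold change was under 1.5. In that fit 15.7% of all probes had an unadjusted p under 0.05 for period. The smallest p that exchanging the periods within 4 cows allows is 0.125, which CA2 had in this exact sign test. CA2 was also higher in period 2 in 4 of 4 cows after scaling to the 75th percentile, with normexp background correction and in the deposited table, but by 0.02 to 0.41 and by 0.01 to 0.17 in the first and second of these. CA2 is also abundant in red blood cells. The summed signal of 6 erythroid markers, among which HBA, a haemoglobin chain, was the brightest probe and SLC4A1, the red cell anion exchanger, was above background on no array, was 11.64 to 13.35 in period 1 and 11.86 to 13.17 in period 2. The median log2 difference of these markers, period 2 minus period 1, was -0.18. Their part in the CA2 signal was not tested.

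CA4 varied widely between the arrays of each diet. The CA4 log2 signal on LC was 11.45, 10.81, 10.74 and 10.86 in cows 1 to 4, and on HC it was 10.32, 11.09, 10.60 and 11.47. On LC the array of cow 1 stood apart above the other 3, and on HC that of the same cow was the lowest. The mean was 10.96 ± 0.33 (SD, n = 4) on LC and 10.87 ± 0.51 (SD, n = 4) on HC. For CA4, the log2 fold change was -0.09 ± 0.28 (standard error; limma, unadjusted p = 0.753), also within each slide, and the exact two-sided permutation p was 0.8. Its 95% interval was 0.590 to 1.49-fold, so a fall of 1.5-fold on HC was within it. With cow as a block and period in the model it was 0.556 to 1.59-fold, which also holds a rise of 1.5-fold. CA4 changed on HC by -1.12 in cow 1 and -0.14 in cow 3, and was higher by 0.29 in cow 2 and 0.61 in cow 4. The sign turned when cow 1 was left out on LC (0.07) or on HC (0.10), or cow 3 on HC (0.13). These fits had no term for cow. CA4 is also found on capillary endothelium. The summed signal of 4 endothelial markers (CLDN5, EMCN, KDR and TEK) was 9.72 to 10.14 on LC and 9.88 to 10.51 on HC, highest on the HC array of cow 4 (CA4 11.47). On the LC array of cow 1, where CA4 was 11.45, the sum was 10.05, and on the LC array of cow 4, where CA4 was 10.86, it was 10.14. The part of these cells in the CA4 signal was not tested.

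**Figure D1:**
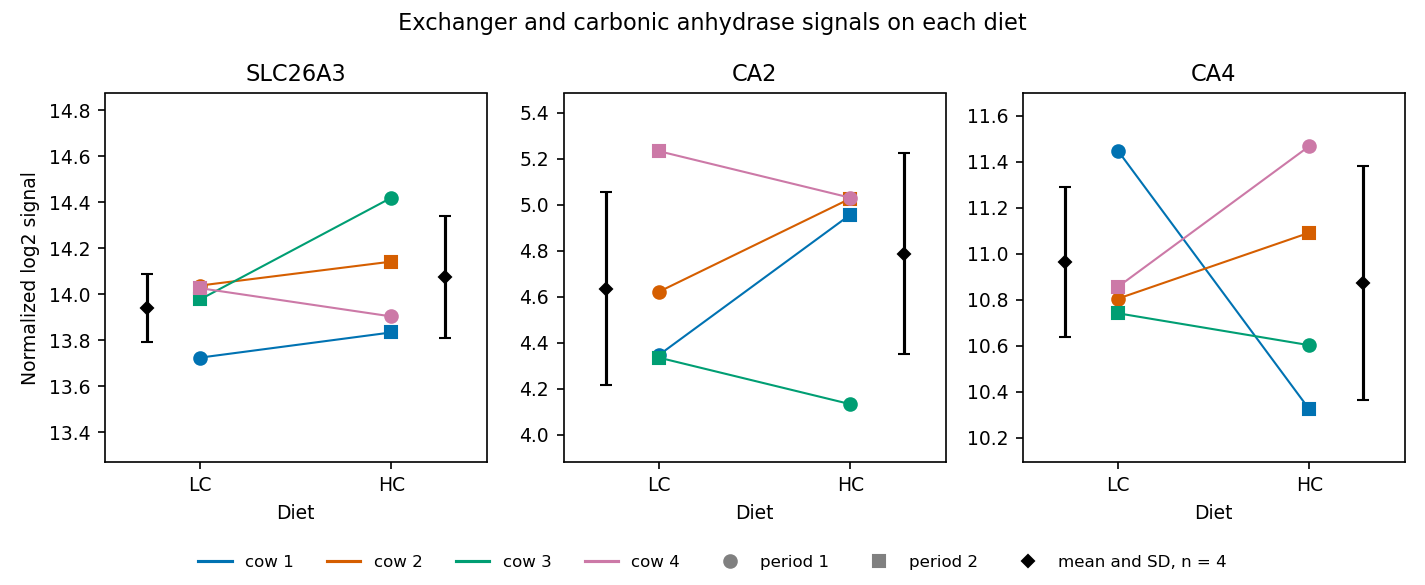
Normalized log2 signal of SLC26A3, CA2 and CA4 on each diet, with lines that join the LC and HC arrays of a cow, circles for period 1, squares for period 2, and the mean and SD (n = 4) of each diet at the sides. The diets overlapped for all 3 genes, CA2 was higher on HC in cows 1 and 2 and lower on HC in cows 3 and 4, and CA4 spanned 10.32 to 11.47.

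The measured genes differed in how much of their variation went with the cow. Over the 8 arrays, the cow took 62.5% of the sum of squares of SLC26A3 and 73.2% of that of CA2, but 22.0% of that of CA4. The diet took 11.4, 4.04 and 1.49% in this order, and the period 0.449, 21.8 and 19.3%. The rest was 25.6% for SLC26A3, 0.910% for CA2 and 57.3% for CA4. Cow has more degrees of freedom in this split than diet or period, so noise alone would give it a larger share. Over the probes well above background on every array, the medians were 52.9% for cow, 10.69% for period and 5.12% for diet. The spread within a diet (pooled SD, log2) was 0.21 for SLC26A3, 0.43 for CA2 and 0.43 for CA4, against a median of 0.21 for these probes, of which 90.3% had a smaller spread than CA2 and 90.2% a smaller spread than CA4. The spots of a probe on the same array differed by up to 0.22 for SLC26A3, 0.30 for CA2 and 0.17 for CA4, with medians of 0.06, 0.13 and 0.09.

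**Figure D2:**
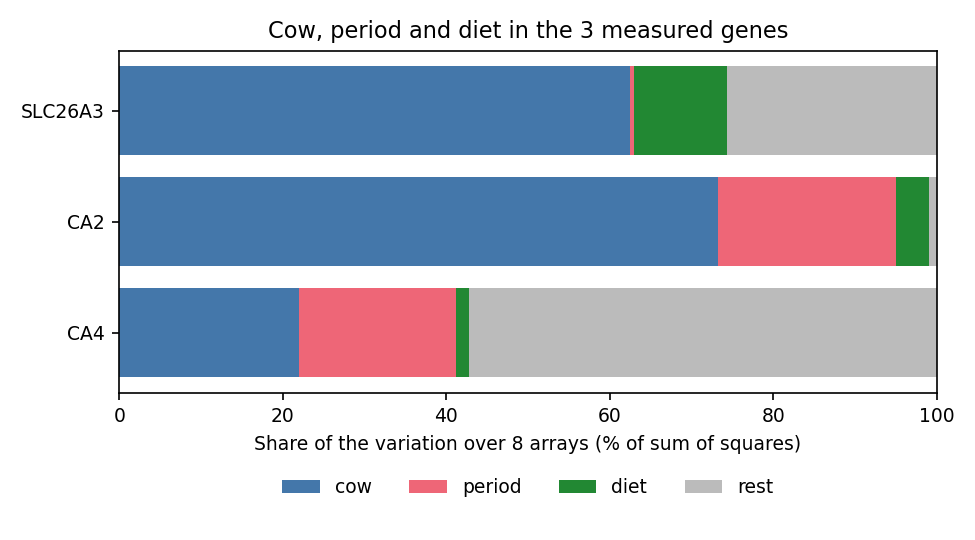
Share of the sum of squares over 8 arrays (percent, horizontal axis) that went with cow, period, diet and the rest, for the 3 measured genes. The cow took 73.2% for CA2 and 22.0% for CA4, and the diet took at most 11.4%. Cow has more degrees of freedom than diet or period, so the shares are not on equal terms.

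None of the 3 genes was called for period or for the interaction of diet and period. For period, 0 of the 3 genes passed both thresholds, beside 3.86% of all probes, and the arrays of the periods overlapped for all 3, while for 7.48% of all probes they did not. The log2 difference, period 2 minus period 1, was -0.03 (standard error 0.16) for SLC26A3 and -0.33 (standard error 0.28) for CA4. In this crossover the interaction compares cows 1 and 2 with cows 3 and 4. Its term is 2 times the difference of their means, and the fit takes the 2 arrays of a cow as independent. For the interaction, 0 of the 3 genes passed, beside 8.58% of all probes. The arrays of these pairs of cows overlapped for all 3 genes, while for 5.63% of all probes they did not. The interaction term was -0.29 for SLC26A3, 0.11 for CA2 and -0.0003 for CA4, for which limma gave unadjusted p values of 0.381, 0.844 and 0.9996. The mean of both diets was 13.78 to 14.20 for SLC26A3, lowest in cow 1, and 4.23 to 5.13 for CA2, lowest in cow 3 and highest in cow 4.

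No diet difference was called in a wider set of acid-base genes either. A list of 45 other proton and bicarbonate transporters, carbonic anhydrases and their partners, which does not hold the 9 genes, had 22 genes with a probe. It holds no proton pumps driven by ATP, so its counts say nothing of these. Of these, 12 stood well above background on every array, 3 on some arrays (CA7, SLC4A10 and SLC9B2) and 7 on none (CA14, PDZK1, SLC26A5, SLC26A7, SLC26A8, SLC4A1 and SLC4A4). For diet, 0 of the 22 genes were called, beside the 0.922% of all probes given above, and 0 had an unadjusted p under 0.05. The median log2 fold change was 0.06 over the 22 genes and 0.01 over the 12 measured on every array, of which 6 were higher and 6 lower on HC. Over all probes the median was -4.48e-05.

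Of the partners of sodium-proton exchangers among these 12 genes, CHP1, a cofactor of the family, had a log2 fold change of -0.09. The scaffold NHERF2 and the membrane linker EZR, which hold exchangers at the apical surface, had -0.02 and -0.02. The 95% intervals of CHP1, NHERF2 and EZR lay within 1.5-fold.

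Bicarbonate and anion carriers included the gene with the largest difference of the 12. SLC4A7, a sodium-bicarbonate cotransporter, had a log2 signal of 7.08, 6.89, 7.35 and 7.64 on LC and of 6.85, 6.91, 7.05 and 7.20 on HC in cows 1 to 4. The LC array of cow 4 was the highest, and the signal was lower on HC in 3 of 4 cows. The log2 fold change of SLC4A7 was -0.24 ± 0.11 (standard error; limma, p = 0.0639 unadjusted and 0.9995 adjusted), and the exact two-sided permutation p was 0.257. Within slide 1 the log2 fold change was 0.14 and within slide 2 it was -0.62. Each sets 2 arrays against 2 of other cows, and 3.78% of all probes were called within slide 2, SLC4A7 among them. Its interaction term of -0.76 (standard error 0.22) passed the thresholds, with limma p values of 0.0121 unadjusted and 0.390 adjusted. SLC4A7 was the 1 gene of the 22 called for it, beside the 8.58% of all probes. The term is 2 times the gap between the pairs of cows, so this call does not mean that the pairs differed by 1.5-fold. The means of both diets were 6.96 and 6.90 in cows 1 and 2 and 7.20 and 7.42 in cows 3 and 4. The limma p of 0.0121 takes the 2 arrays of a cow as independent, although the contrast is between cows. When limma was fitted to the mean of each cow, a setting chosen after the data were seen, p was 0.0422 before and 0.817 after adjustment.

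SLC4A11, another member of the SLC4 family, had a signal of 7.99 ± 0.66 (SD, n = 4) on LC and 8.14 ± 0.44 (SD, n = 4) on HC. The log2 fold change of SLC4A11 was 0.15 ± 0.28 (standard error; limma, unadjusted p = 0.602). It was 0.80 within slide 1 and -0.49 within slide 2, in each case between different cows. It was -0.05 when cow 1 was left out on LC and -0.06 when cow 3 was left out on HC. SLC4A9 and SLC26A11, further anion carriers, had 0.08 and 0.03, and CFTR, an anion channel that conducts chloride and bicarbonate, had 0.10 (standard error 0.30). Among the carbonic anhydrases of the list, CA6, a secreted enzyme, had a log2 fold change of 0.07 and CA11, a relative without enzyme activity, had 0.09. The interval of CFTR reached beyond 1.5-fold in both directions and that of SLC4A11 towards higher signal on HC. Those of SLC4A9, SLC26A11, CA6 and CA11 did not. With cow as a block and period in the model, the interval was 0.873 to 1.32-fold for CFTR and 0.890 to 1.39-fold for SLC4A11.

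**Figure D3:**
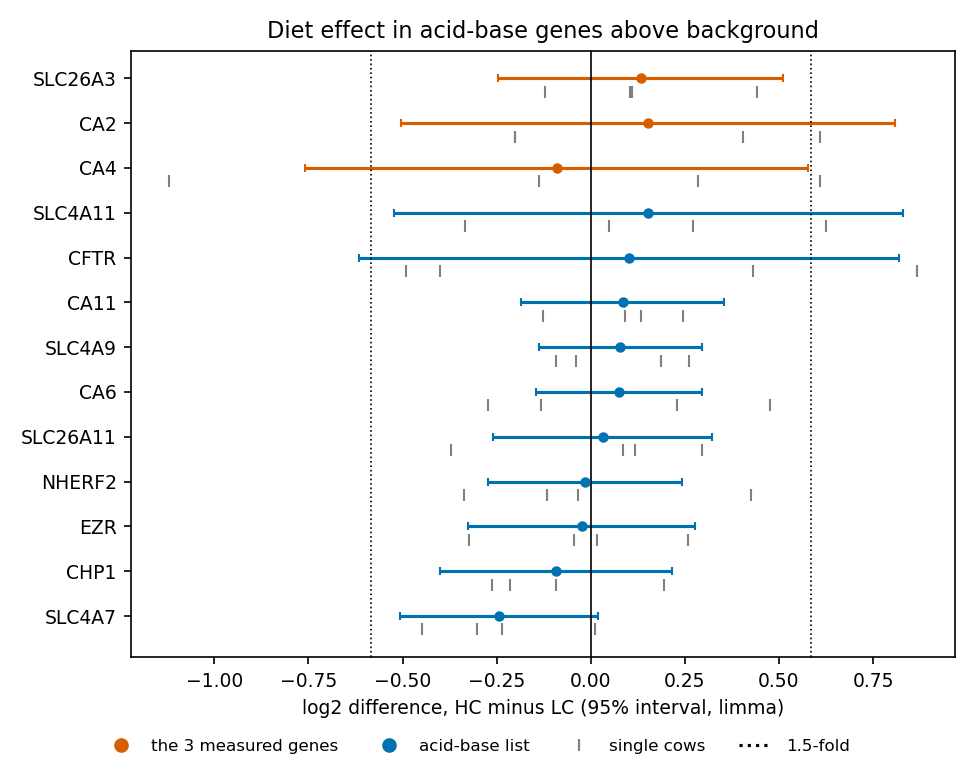
Log2 difference between the diets (HC minus LC, horizontal axis) with its 95% interval from limma for the 3 measured genes (orange) and for 10 genes of the acid-base list above background on all 8 arrays (blue), with the difference in each cow (grey marks) and 1.5-fold (dotted lines). All 13 intervals contain 0, and the single cows of CA4 range from -1.12 to 0.61.

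The genes whose signal was most like that of each measured gene were sought among 6468 other named genes above background on all 8 arrays. Over the 8 arrays of 4 cows, which share cows and slides, the Pearson r of SLC26A3 was 0.948 with CCDC117 and 0.944 with SESTD1. CA2 had 0.955 with SH3YL1 and 0.947 with GOLT1A, and CA4 had 0.947 with COX7B and 0.922 with SNCG. With so many genes and few arrays, such values describe these arrays and no more. None of the 6 nearest genes was in the acid-base list.

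The diet effect of the 3 genes stayed below the thresholds under every one of the 21 other settings tried. Over changes of normalization, background correction, model or source of values it lay between 0.10 and 0.13 for SLC26A3, 0.05 (with normexp) and 0.15 for CA2 and -0.10 and -0.09 for CA4. With single arrays left out it lay between 0.004 and 0.26 for SLC26A3, -0.07 and 0.38 for CA2 and -0.31 and 0.13 for CA4. The fits with an array left out had no term for cow, so they also shift the balance of cows.

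**Figure D4:**
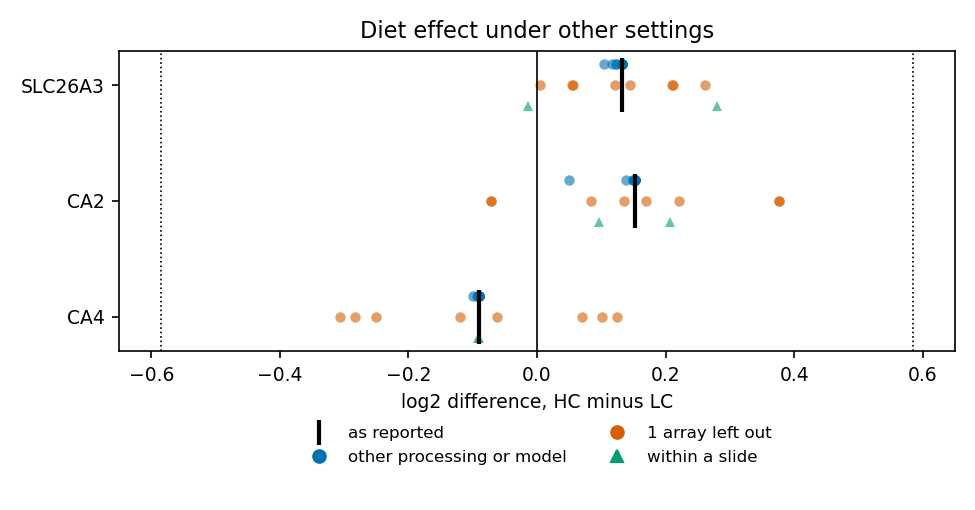
Log2 difference between the diets (HC minus LC, horizontal axis) for the 3 measured genes as reported (black bar), under other processing or models (blue), with 1 array left out (orange) and within a slide (green triangles), with 1.5-fold as dotted lines. Every value lies inside 1.5-fold, and for CA2 and CA4 the values with 1 array left out fall on both sides of 0. Within a slide the diets come from different cows.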

How the data were processed

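RNA of rumen papillae from 4 cows on both diets was measured on 8 single-colour arrays. The authors deposited, per array, the output of Agilent Feature Extraction 10.7.3.1, an intensity per spot after background subtraction, not normalized between arrays. They also deposited a table of log2 values, quantile-normalized by the authors in GeneSpring. Each of its columns had a median of 6.80. It was used as an alternative.

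Control spots and the 0 to 13 outlier spots per array were left out, log2 intensities were quantile-normalized and spots of a probe averaged with limma 3.58.1 in R 4.3.3. No filter on dim probes was applied. Precision is limited by the number of arrays. Of 10176 probes with a RefSeq accession, 8297 were named through the reference (ARS-UCD2.0). The array design names the build Btau 3.1, so no positions are given. A limma model with terms for diet, period and diet by period was fitted to all 21475 probes (4 residual and 2.26 prior degrees of freedom), the terms of the general linear model in the methods, and p values were adjusted over all of them by the Benjamini-Hochberg method. The interaction term is the diet effect in period 2 minus that in period 1. Single genes also had an exact permutation test over arrays, which ignores the pairing within a cow and the period. The fit was tested on simulated arrays with independent noise, no cow or period effects, and diet changes larger than those of the 3 genes. That test does not cover small changes or arrays that share a cow. The normexp alternative used the median spot signal, since the files used here hold no mean signal. Plots were made with matplotlib 3.10.9 in Python 3.11.15.

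The pairing comes from the labels, which name the cow. The deviations of the LC and HC arrays of a cow from their diet's mean correlated at 0.285, 0.298, 0.467 and 0.113 in cows 1 to 4 across the 16030 probes above background on all arrays, against -0.237 to 0.185 between different cows.

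The 9 genes, the acid-base list and the marker lists were chosen with earlier results of these data known. The rule named the 9 genes, the acid-base genes called for diet, the 3 of that list with the largest change among those measured on every array (of which SLC4A7 and SLC4A11 are reported), and for each measured gene the 2 genes with the highest r. SLC4A7 as the gene called for the interaction, the other acid-base genes and the markers are not covered by this rule and were picked with their values in view. Some genes of the acid-base list are counted in its totals but not reported here singly.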

Additional observations from a re-analysis of the deposited data

Results flagged for a closer look

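In 10 groups of 4 arrays (5 genes on both diets), a single array far from the other 3 was found in 2, and chance alone gives about 1 in 20 such groups. The CA2 signal of the HC array of cow 3 was 4.13, against 4.96 to 5.03 on the other HC arrays. The CA4 signal of the LC array of cow 1 was 11.45, against 10.74 to 10.86 on the other LC arrays.

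The CA2 difference between the diets had one sign in cows 1 and 2, which received LC first, and the other in cows 3 and 4. The mean differences of the pairs of cows were 0.71 apart (log2). This contrast is that between the periods within cows, for which limma with cow as a block gave an unadjusted p of 0.0131 and an adjusted p of 0.210 (unadjusted 0.0896 with scaling to the 75th percentile and 0.149 with normexp), and 25.3% of all probes had such a split by the order of the diets.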

How the results depend on the processing

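For the 3 measured genes, 0 were called for diet, period or interaction in all alternatives that could estimate the term. The replicate block (cow, with period) left the diet and period differences as they were and called none of them; the random block had a consensus correlation of 0.384. Among acid-base genes the diet count of 0 ranged from 0 to 1 over the fits that lacked 1 array and was 2 within slide 2 (added after seeing the data, as was the fit within slide 1): PDZK1, above background on no array, without the LC array of cow 1 or 4 or the HC array of cow 1 or 3, and SLC4A7 beside it within slide 2, at -0.62.

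The following signs turned, and the cause was not tested. Within slide 2 the diet difference was -0.0140 for SLC26A3 and -0.49 for SLC4A11, and within slide 1 it was 0.14 for SLC4A7. Within a slide the HC and LC arrays come from different cows, so these turns cannot be told apart from differences between cows. The gap between the slides is the interaction term, which compares the pairs of cows. The CA4 interaction was 0.0126 with 75th percentile scaling and 0.0018 in the deposited table, and the SLC26A3 period difference was 0.0126 with normexp. With 1 array left out, diet differences ranged from -0.0719 to 0.38 for CA2, -0.31 to 0.13 for CA4 and -0.0557 to 0.36 for SLC4A11. Interactions ranged from -0.34 to 0.56 for CA2 and -0.43 to 0.43 for CA4, and the SLC26A3 period difference from -0.16 to 0.10. The SLC4A7 interaction was no longer called with normexp, where it was -0.50, under the fold threshold. Each gene had 1 probe, so averaging probes changed nothing. The period difference of CA2, whose probe was dim, was 0.35 as reported, 0.20 with 75th percentile scaling and 0.06 with normexp.

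Over all probes, the 198 diet calls became 8 with normexp, 75 among probes above background on all arrays of a diet, 105 without moderation, 415 in the deposited table and 239 to 404 with 1 array left out. The 828 period calls became 32 with normexp, 379 among these probes and 600 without moderation, and the 1843 interaction calls 633, 1576 and 1125.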

Other observations

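Between the periods, 3 of the 12 acid-base genes measured on every array (25%) moved one way in all 4 cows, beside 25.7% of the probes measured on every array. CFTR, an anion channel, and SLC4A9, an anion exchanger, were higher in period 2, and CA6, a secreted carbonic anhydrase, was lower. CFTR was higher in period 2 by 0.87, 0.43, 0.40 and 0.49 in cows 1 to 4, with an unadjusted p of 0.00617 and an adjusted p of 0.176 from limma with cow as a block. Its signal was dim, at 2.89 to 4.27 (log2), and its spots on an array differed by up to 1.20. These genes were named after their values were seen.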
